A study of Mus musculus with 4 samples.

Results

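The genes described here are the metalloproteinases of the matrixin, ADAM and ADAMTS families and the tissue inhibitors that block them, measured by bulk RNA sequencing of marrow stromal cells from mouse femurs. They were taken by symbol, as every row of the count table that began with Mmp, Timp or Adam followed by a digit, or with Adamts. The rule gave 64 of 17230 rows. They comprised 11 secreted Mmp genes, 7 membrane-bound Mmp genes, 4 Timp genes, 20 Adam genes, 17 Adamts genes and 5 Adamtsl genes.

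The study set 2 origins of CXCL12-abundant reticular (CAR) cells against each other. All mice carried a GFP allele of Cxcl12 and a Cre-dependent tdTomato reporter, with the genotype written Cxcl12(GFP/+) and R26R(tdTomato/+), so 1 Cxcl12 allele was marked in every library. In the Hes1-derived group a tamoxifen-dependent Cre was carried as Hes1(CreER/+), and in the Fgfr3-derived group as Fgfr3-iCreER. Tamoxifen was given at embryonic day 12.5, and cells were taken from femur bone and marrow at postnatal day 21. Per the series title, the 2 drivers stand for the fetal perichondrium and for chondrocytes, and the 2 origins cannot be told apart from the 2 Cre alleles. The cell type labels give cells positive for both GFP and tdTomato, whereas the extraction protocol names tdTomato alone and the removal of the distal growth plates. The same protocol also names 10X loading, whereas the deposited counts hold 1 column per library and were treated here as bulk libraries. Each group had 2 libraries, Hes1-derived replicates 1 and 3 and Fgfr3-derived replicates 2 and 3. Neither the number of animals per library nor their pooling is stated, so the p-values measure only the spread between these libraries.

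Matrix metalloproteinases cut collagens, gelatins and proteoglycans outside the cell or at its surface and are made as inactive precursors. ADAM proteins are membrane-anchored and many shed the outer parts of other surface proteins, while ADAMTS proteins are secreted and process procollagens and large proteoglycans. The 4 tissue inhibitors, TIMPs, bind the active site of these enzymes. In bone, MMP13 and MMP9 take part in the replacement of growth plate cartilage, and MMP14 acts at the surface of stromal cells and osteoblasts. Adamtsl genes encode ADAMTS-like proteins that lack a proteinase domain.

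The 4 libraries held 22745128 to 26804832 reads, and 14330 genes passed the filter on low counts. Cxcl12, the gene that names these cells, had levels of 7057 and 4179.8 CPM (counts scaled to a common library total) in the Hes1-derived pair, replicate 1 first, and 9764 and 7028 CPM in the Fgfr3-derived pair, replicate 2 first, the order used throughout. Its tagged allele, read as eGFP, gave 6669 and 3204 CPM against 9264 and 6754 CPM, so that the 2 Hes1-derived libraries differed from each other. The lineage reporter, read as tdTomato-WPRE, gave 229 and 113 CPM against 382 and 510.4 CPM, a log2 fold change of -1.39. A Cre sequence, read as iCre-ERT2, gave 24.4 and 16.3 CPM against 95.4 and 74.7 CPM, a log2 fold change of -2.06. Both were called lower in the Hes1-derived libraries by edgeR (adjusted p under 0.05). The Cre allele and its driver differ with the group, so iCre-ERT2 reads need not measure the same thing in both. Scaling to tdTomato reads was not tested. Hes1 (69.2 and 41.9 CPM against 101 and 113 CPM) and Fgfr3 (92.7 and 53.3 CPM against 176 and 147 CPM) were read in every library, and since the Cre mark was set before birth their levels do not check the labels. Markers of blood cells were also present and differed between the groups. In the Hes1-derived libraries edgeR called higher (adjusted p under 0.05) all 9 tested markers of B lymphocytes, 8 of 9 of erythroid cells and 5 of 7 of leukocytes in general. Of all tested genes, 5.24% were called higher and 6.56% lower. Of 16 CAR cell markers Csf1 and Foxc1 were lower in the Hes1-derived libraries and 14 were not called. Osteoblast markers moved more, with 6 of 11 lower in the Hes1-derived libraries and summed levels of 3686 and 3773 CPM against 15228 and 18987 CPM. Phex alone of the 11 had a positive log2 fold change (0.92, edgeR, adjusted p = 0.173). Of 6 markers of smooth muscle and pericytes, 4 were also lower (Acta2, Mcam, Rgs5 and Tagln). The median of the 6 was -1.46, with summed levels of 47.6 and 33.1 CPM against 107 and 114 CPM. The smooth muscle genes Myh11 and Cnn1 went the other way, at 2.01 and 1.35, and were not called (edgeR, adjusted p = 0.132 and 0.353). In bulk libraries fewer cells of a type and less RNA per cell cannot be told apart. The part of these other cells in the results below was not tested except where a value is given.

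A cluster of Mmp genes on chromosome 9 holds the members with the most contrasting results. Of the 64 genes, 5 lie on the plus strand within 309 kb (build GRCm38). They are Mmp13 (chr9:7272514-7283331), Mmp12 (chr9:7344381-7369499), Mmp10 (chr9:7502352-7510240), Mmp8 (chr9:7558456-7568485) and Mmp27 (chr9:7571396-7581885). The span also holds genes that are not among the 64, such as Mmp1b on the opposite strand. Mmp13 and Mmp10 were lower in the Hes1-derived libraries, Mmp8 was higher, Mmp12 did not pass the test and Mmp27 had too few reads to be tested. The promoter windows of the 3 called genes are shown because these genes of the same cluster moved in opposite directions. Each runs from 250 bases before to 50 bases after the transcription start, from RefSeq (GRCm38.p6, plus strand): chr9:7272264-7272563 for Mmp13, chr9:7502092-7502391 for Mmp10 and chr9:7558179-7558478 for Mmp8. Capitals mark matches, on either strand, to an AP-1 motif (TGANTCA), a RUNX motif (TGTGGT) or a TATA motif (TATAAA).
Mmp13: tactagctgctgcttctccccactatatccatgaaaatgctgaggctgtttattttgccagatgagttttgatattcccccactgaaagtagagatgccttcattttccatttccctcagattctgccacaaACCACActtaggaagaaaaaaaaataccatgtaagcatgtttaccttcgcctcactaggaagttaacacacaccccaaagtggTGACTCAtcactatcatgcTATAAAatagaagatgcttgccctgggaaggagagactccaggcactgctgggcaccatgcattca
Mmp10: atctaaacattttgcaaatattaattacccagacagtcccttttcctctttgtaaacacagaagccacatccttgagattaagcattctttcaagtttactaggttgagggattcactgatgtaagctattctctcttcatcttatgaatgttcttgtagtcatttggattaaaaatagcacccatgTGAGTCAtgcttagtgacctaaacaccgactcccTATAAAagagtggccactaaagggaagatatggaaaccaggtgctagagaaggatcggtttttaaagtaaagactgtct
Mmp8: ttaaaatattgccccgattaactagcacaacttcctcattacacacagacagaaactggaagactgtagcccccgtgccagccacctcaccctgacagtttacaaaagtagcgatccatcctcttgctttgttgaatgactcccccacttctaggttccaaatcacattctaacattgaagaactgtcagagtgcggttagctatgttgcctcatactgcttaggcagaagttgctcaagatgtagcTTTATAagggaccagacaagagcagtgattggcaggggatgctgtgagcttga

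The Mmp13 window held a RUNX match on the minus strand beginning at position -118 from the start, an AP-1 match at -35 and a TATA match at -16. The Mmp10 window held an AP-1 match at -63 and a TATA match at -29. The Mmp8 window held only a TATA match, on the minus strand at -3. Of the other members in this span, Mmp12 (log2 fold change 2.32, not called) had an AP-1 match at -44 and a TATA match at 5. Mmp27, which was not tested, had a RUNX match at -62. The AP-1 motif was thus not confined to the lower genes of this cluster. RefSeq windows were found for 40 of the 64 genes (44 windows), among them 8 of the 18 genes lower in the Hes1-derived libraries. The AP-1 motif was in 11.4% of these 44 windows and in 7.81% of all 32851 windows, the RUNX motif in 18.2% and 16.8%, and the TATA motif in 18.2% and 13.6%. Mmp13 was the 1 window of 44 that held both the AP-1 and the RUNX motif, which 1.42% of all windows did. A match describes the letters and is not a measured binding site.

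Of the 64 genes, 54 had enough reads for the test. By edgeR's quasi-likelihood test, 18 of the 54 were lower in the Hes1-derived than in the Fgfr3-derived libraries at an adjusted p under 0.05, beside 6.56% of all tested genes. Mmp8 alone was higher, beside 5.24% of all genes. The other 35 were not called. The median log2 fold change of the 54 (Hes1-derived minus Fgfr3-derived) was -0.89, and that of all tested genes was -0.02. Both Fgfr3-derived libraries lay above both Hes1-derived libraries for 34 of the 54, and 32.1% of all tested genes had that order. The reverse order was seen for 5 of the 54 and for 29.8% of all genes. In either order, the groups did not overlap for 39 of the 54, beside 61.9% of all genes. Reads on the 64 genes made up 0.615% and 0.599% of the Hes1-derived libraries and 2.12% and 2.07% of the Fgfr3-derived libraries. Mmp10 passed the count filter only through the Fgfr3-derived libraries and Adamts20 only through the Hes1-derived libraries, so a difference between the groups was a condition of their testing. The 10 genes left out for low reads were Mmp21, Mmp27, Adam1b, Adam3, Adam6b, Adam28, Adam32, Adamts8, Adamts16 and Adamtsl2.

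**Figure D1:**
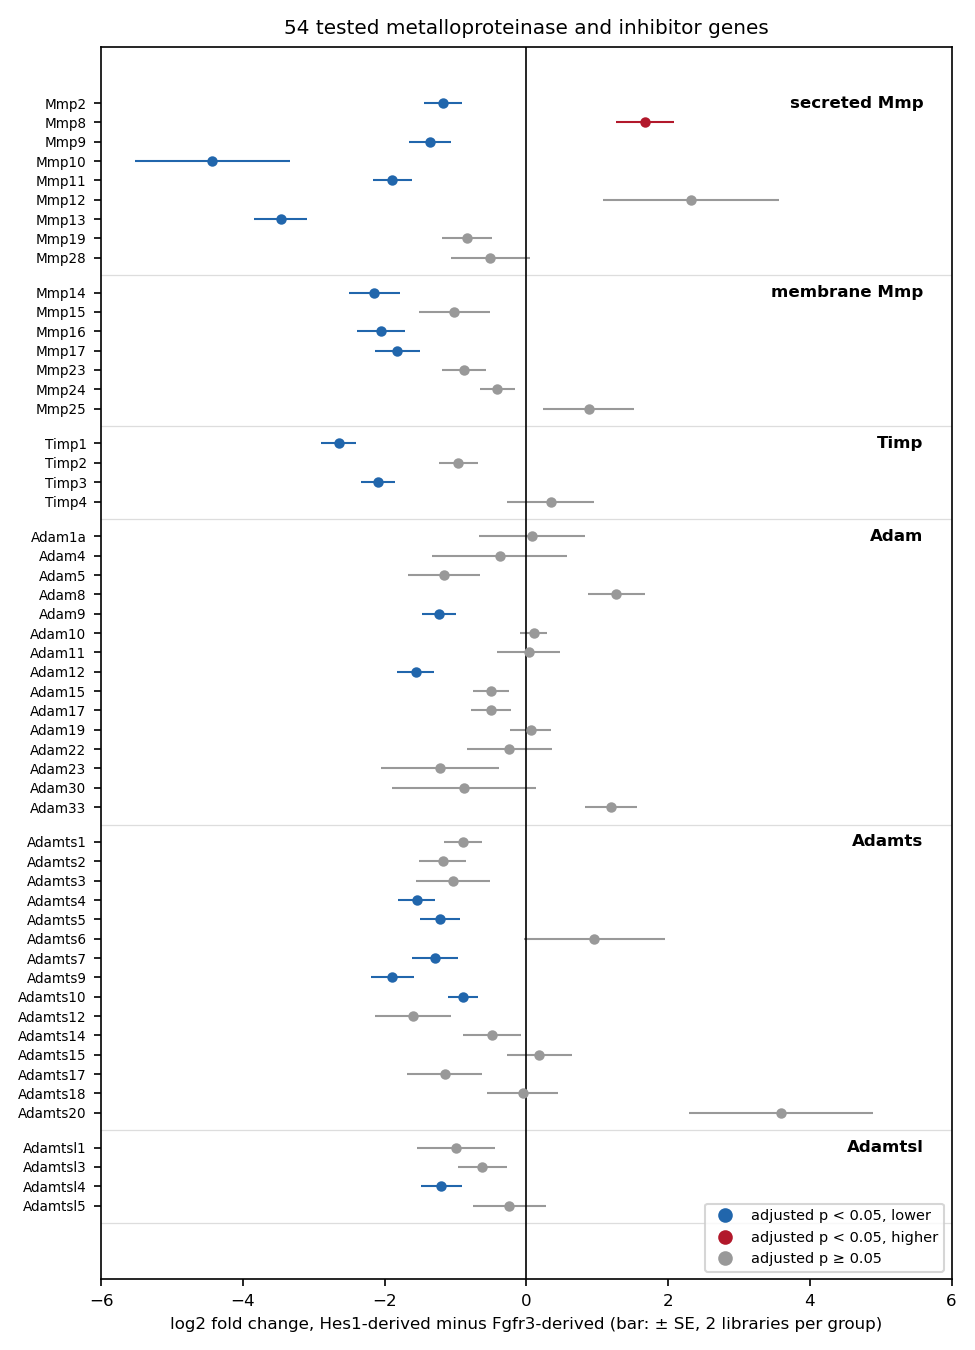
Log2 fold change (Hes1-derived minus Fgfr3-derived, x axis) of the 54 tested genes by subfamily, with bars of 1 standard error from 2 libraries per group and colour for the edgeR call at an adjusted p of 0.05. The 18 genes lower in the Hes1-derived libraries lie between -4.43 (Mmp10) and -0.89 (Adamts10), and Mmp8 at 1.67 is the single gene called higher.

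Among the secreted Mmp genes, 5 of 9 tested were lower in the Hes1-derived libraries, Mmp8 was higher, and the median was -1.18. Mmp13 encodes the main interstitial collagenase of mouse bone and cartilage. Its level was 1129 and 1052 CPM in the Hes1-derived libraries and 12119.7 and 11995 CPM in the Fgfr3-derived libraries. The libraries within each group were close to each other and the groups were far apart. The log2 fold change was -3.47 ± 0.37 (SE), or 11.1-fold (edgeR, adjusted p = 0.0130). Chondrocytes also express Mmp13. The summed level of 10 chondrocyte markers was 690.4 and 2444 CPM in the Hes1-derived libraries and 4033 and 518 CPM in the Fgfr3-derived libraries. The groups overlapped in this sum, and the part of cartilage cells in the Mmp13 difference was not tested. Per 1000 reads of the osteoblast list, Mmp13 had 306 and 279 reads in the Hes1-derived and 796 and 632 in the Fgfr3-derived libraries, without overlap.

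Mmp8 encodes the collagenase stored in neutrophil granules. It stood at 805 and 1125 CPM in the Hes1-derived libraries and at 186 and 422 CPM in the Fgfr3-derived libraries. The groups did not overlap, but each spread widely, and the log2 fold change was 1.67 ± 0.41 (edgeR, adjusted p = 0.0449). The call was lost when Hes1-derived replicate 1, Hes1-derived replicate 3 or Fgfr3-derived replicate 2 was left out. The summed level of 12 neutrophil markers followed the same order of libraries, at 26768 and 31351 CPM against 8745 and 21644 CPM. None of these 12 markers was called by edgeR (5 had an unadjusted p under 0.05, and DESeq2 called 6), and the Hes1-derived libraries lay above the others for 10 of them. That order was seen for 29.8% of all tested genes. None of the 12 was at 0 in any library. Per 1000 reads on the neutrophil list, Mmp8 had 30.1 and 35.9 reads in the Hes1-derived libraries and 21.3 and 19.5 in the Fgfr3-derived libraries, a smaller difference than in CPM.

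The gelatinases Mmp9 and Mmp2, which cut denatured collagen and basement membrane collagen, were both lower in the Hes1-derived libraries. Mmp9 (chr2:164940780-164955850) stood at 1069 and 1256 CPM against 2997 and 2983 CPM, a log2 fold change of -1.36 ± 0.29 (edgeR, adjusted p = 0.0299). Its call was lost without either Hes1-derived library and without Fgfr3-derived replicate 2. Neutrophils and osteoclasts also make MMP9. Per 1000 reads of the neutrophil list there were 39.9 and 40.1 in the Hes1-derived and 343 and 138 Mmp9 reads in the Fgfr3-derived libraries. The 9 osteoclast markers summed to 236 and 365 CPM against 232 and 257 CPM, with overlapping groups. Of the 8 that were tested, Itgb3 was lower and Acp5 higher in the Hes1-derived libraries. Calcr had too few reads to be tested, with 0 and 0 reads against 10 and 0. The part of either cell type in the Mmp9 difference was not tested. Mmp2 stood at 244 and 158 CPM against 469.8 and 437 CPM, a log2 fold change of -1.18 ± 0.27 (edgeR, adjusted p = 0.0361), and lost its call without Hes1-derived replicate 3 or Fgfr3-derived replicate 2.

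The remaining secreted members differed in level by orders of magnitude. Mmp11, or stromelysin 3, which is activated inside the cell by furin, stood at 81.3 and 48.2 CPM against 234 and 246 CPM, a log2 fold change of -1.89 ± 0.28 (edgeR, adjusted p = 0.0169). Mmp10, or stromelysin 2, had 0 and 6 reads in the Hes1-derived libraries and 56 and 87 reads in the Fgfr3-derived libraries. Its difference was called (edgeR, adjusted p = 0.0444), but the size rests on the 6 reads of a single Hes1-derived library. Without Hes1-derived replicate 1, Fgfr3-derived replicate 2 or Fgfr3-derived replicate 3 the call was lost. Mmp12, the macrophage elastase, had 5 and 63 reads against 11 and 3 reads, so 1 Hes1-derived library held most of its reads (edgeR, adjusted p = 0.260). Mmp19 and Mmp28 were not called (edgeR, adjusted p = 0.162 and 0.592), with Mmp28 at 2.51 and 1.93 CPM against 4.26 and 2.06 CPM.

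Of the 7 membrane-bound Mmp genes, the Hes1-derived libraries had 3 lower and 4 not called, with a median of -1.02. Mmp14 encodes MT1-MMP, which cuts fibrillar collagen at the cell surface and activates pro-MMP2. It stood at 449 and 238 CPM in the Hes1-derived and 1494 and 1557 CPM in the Fgfr3-derived libraries, a log2 fold change of -2.15 ± 0.36 (edgeR, adjusted p = 0.0192). Mmp16 encodes the related MT3-MMP and stood at 4.97 and 3.55 CPM against 17.8 and 17.5 CPM (-2.05 ± 0.34, edgeR, adjusted p = 0.0192). Mmp17 encodes the lipid-anchored MT4-MMP and stood at 44.0 and 26.6 CPM against 150.3 and 98.9 CPM (-1.82 ± 0.32, edgeR, adjusted p = 0.0216). In all 3 the groups were separate. The other members differed less. Mmp23 stood at 78.2 and 41.0 CPM against 113 and 107 CPM and Mmp24 at 20.8 and 17.3 CPM against 26.7 and 24.0 CPM, without overlap but above the threshold (edgeR, adjusted p = 0.110 and 0.322). Mmp25, also called leukolysin and known from neutrophils, stood at 24.7 and 33.0 CPM against 5.13 and 26.2 CPM, so the groups overlapped (edgeR, adjusted p = 0.408).

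Of the 4 inhibitors, Timp1 and Timp3 were lower in the Hes1-derived libraries, and Timp2 and Timp4 were not called. Timp1 (chrX:20870166-20874735) stood at 7.04 and 6.61 CPM against 42.6 and 43.2 CPM. The spread within each group was small beside the 6.29-fold difference, and the log2 fold change was -2.65 ± 0.25 (edgeR, adjusted p = 0.0130). Timp3 encodes the inhibitor that is bound to the matrix and also blocks ADAM17 and aggrecanases. It stood at 65.2 and 50.4 CPM against 273 and 219.6 CPM, a log2 fold change of -2.09 ± 0.24 (edgeR, adjusted p = 0.0130). The Timp3 exons share 21.3% of their bases with exons of Syn3 on the opposite strand, and the strand setting of the counting is not given. Syn3 had 132 and 72 reads against 81 and 37, beside 1482 and 1250 against 6931 and 5744 reads on Timp3. Timp2, which also takes part in pro-MMP2 activation, stood at 415 and 298 CPM against 785 and 604 CPM, separate but above the threshold (edgeR, adjusted p = 0.0657). Timp4 stood at 11.7 and 3.83 CPM against 8.60 and 3.67 CPM, with more spread within than between the groups.

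Ratios within a library do not depend on how the libraries are scaled to each other. Mmp13 had 160.4 and 159 reads per Timp1 read in the Hes1-derived libraries and 284 and 277 in the Fgfr3-derived libraries. The lower Timp1 of the Hes1-derived libraries therefore came with a still lower Mmp13. Mmp9 went the other way, with 152 and 190.1 reads per Timp1 read in the Hes1-derived libraries against 70.3 and 69.0. Mmp14 had 1.08 and 0.799 reads per Timp2 read against 1.90 and 2.58, and Mmp2 had 0.543 and 0.662 reads per Mmp14 read against 0.314 and 0.281. Adamts5 had 0.726 and 0.611 reads per Timp3 read against 0.384 and 0.349. In each of these 5 ratios the groups were separate, and the exact permutation test of 2 against 2 libraries cannot give a p below 0.33. Other ratios were also computed, and the groups were separate in them except for Adamts2 per Col1a1 read. That ratio was 0.388 and 0.132 against 0.253 and 0.125. The groups lay close for Mmp2 per Timp2 read, at 0.587 and 0.529 against 0.599 and 0.724.

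Among the subfamilies the Adam genes had the median nearest to 0, at -0.38. Of 15 tested, Adam9 and Adam12 were lower in the Hes1-derived libraries and 13 were not called. Adam12, which is expressed in mesenchymal cells, stood at 47.9 and 41.3 CPM against 159 and 105 CPM, a log2 fold change of -1.56 ± 0.26 (edgeR, adjusted p = 0.0196). Adam9, a widely expressed member, stood at 94.2 and 67.6 CPM against 207 and 176 CPM (-1.24 ± 0.24, edgeR, adjusted p = 0.0249). The 2 best-known sheddases did not pass. Adam10, which sheds Notch receptors and cadherins, stood at 165 and 169.5 CPM against 158 and 153 CPM, a log2 fold change of 0.10 ± 0.19 (edgeR, adjusted p = 0.772). Adam17, which sheds TNF and ligands of the EGF receptor, stood at 114 and 111 CPM against 201 and 117 CPM, with 1 Fgfr3-derived library apart from the other 3 (edgeR, adjusted p = 0.285). Adam8, known from leukocytes, stood at 139.5 and 152 CPM against 34.1 and 86.7 CPM. Its log2 fold change of 1.27 ± 0.40 did not pass (edgeR, adjusted p = 0.0838), and per 1000 neutrophil-list reads it had 5.21 and 4.83 reads against 3.90 and 4.01. Per 1000 reads of the pan-leukocyte list the groups overlapped, at 34.8 and 32.4 against 30.3 and 37.4. Adam33, chosen after its values were seen as the other Adam gene above 1, stood at 10.3 and 7.86 CPM against 4.22 and 3.75 CPM (edgeR, adjusted p = 0.0818).

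**Figure D2:**
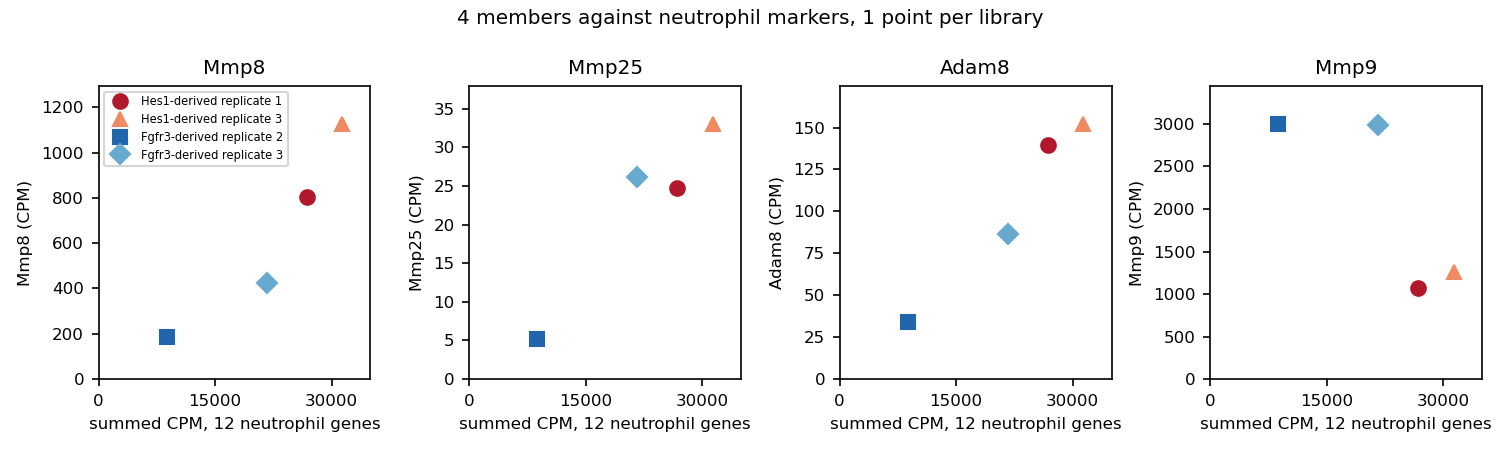
CPM of Mmp8, Mmp25, Adam8 and Mmp9 (y axes) against the summed CPM of 12 neutrophil markers (x axes), 1 point per library. Mmp8 and Adam8 are lowest in Fgfr3-derived replicate 2, which has the lowest marker sum (8745 CPM), and highest in Hes1-derived replicate 3 (31351 CPM), whereas Mmp9 is higher in both Fgfr3-derived libraries.

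Of the 15 tested Adamts genes, 5 were called lower in the Hes1-derived libraries and 10 were not called, with a median of -1.04. Adamts9, which cuts versican and aggrecan, stood at 29.4 and 26.6 CPM against 132 and 75.8 CPM, a log2 fold change of -1.89 ± 0.30 (edgeR, adjusted p = 0.0187). The aggrecanases Adamts4 and Adamts5 moved alike. Adamts4 stood at 42.0 and 28.7 CPM against 95.3 and 112 CPM (-1.55 ± 0.26, edgeR, adjusted p = 0.0192). Adamts5 stood at 47.3 and 30.8 CPM against 105 and 76.6 CPM (-1.22 ± 0.28, edgeR, adjusted p = 0.0379). Adamts10, which binds fibrillin microfibrils, and Adamts7, which cuts cartilage oligomeric matrix protein, were closer to the threshold. Adamts10 stood at 115 and 92.3 CPM against 201 and 184 CPM (edgeR, adjusted p = 0.0401), and Adamts7 at 8.49 and 7.50 CPM against 15.4 and 23.8 CPM (edgeR, adjusted p = 0.0490). Of 17 alternative ways of processing, 6 lost the Adamts10 call and 11 lost the Adamts7 call, limma-voom and limma-trend among the 11. The procollagen N-proteinase Adamts2 stood at 447 and 239.9 CPM against 780.0 and 774 CPM, separate but not called (edgeR, adjusted p = 0.0607). Adamts1 stood at 237 and 212 CPM against 510.0 and 325 CPM (edgeR, adjusted p = 0.0745), and Adamts14, another procollagen N-proteinase, had overlapping groups. Adamts20 had 11 and 14 reads against 2 and 0 and was not called (edgeR, adjusted p = 0.115).

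Among the 4 tested Adamtsl genes, Adamtsl4 was lower in the Hes1-derived libraries, and the other 3 were not called. Adamtsl4, which is linked to fibrillin fibres, stood at 7.70 and 9.19 CPM against 18.1 and 20.8 CPM, a log2 fold change of -1.20 ± 0.29 (edgeR, adjusted p = 0.0428). Its call was lost under 6 of the 17 alternatives. Adamtsl1 and Adamtsl3 were separate between the groups but above the threshold (edgeR, adjusted p = 0.282 and 0.280), and Adamtsl5 overlapped.

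**Figure D3:**
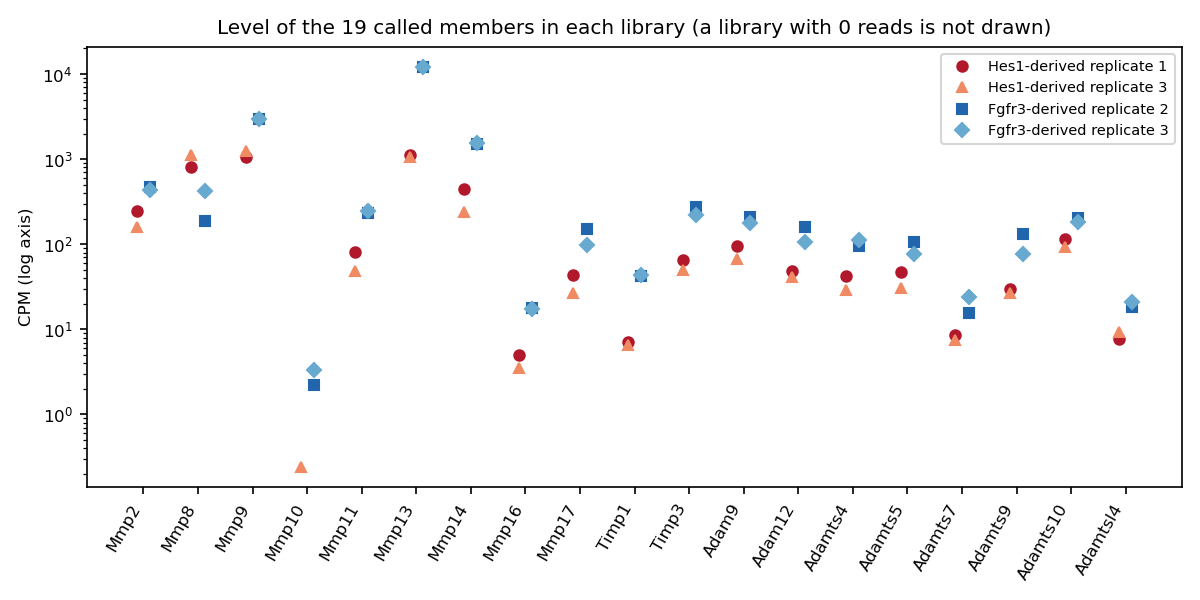
CPM (log axis) of the 19 called genes in each of the 4 libraries, with a library that had 0 reads left out. The groups are separate for each gene, which choosing genes by their call in the same libraries favours, and were separate for 61.9% of all tested genes. Mmp13 is the most abundant in the Fgfr3-derived libraries (12119.7 and 11995 CPM), and Mmp8 is the only gene with the Hes1-derived libraries on top.

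The make-up of the Mmp reads differed between the groups. Mmp13 held 28.4% and 26.2% of all Mmp reads in the Hes1-derived libraries and 67.9% and 66.9% in the Fgfr3-derived libraries. Mmp8 held 20.3% and 28.0% against 1.04% and 2.35%, and Mmp9 held 26.9% and 31.3% against 16.8% and 16.6%. The Hes1-derived libraries thus divided most of their Mmp reads among 3 genes, whereas the Fgfr3-derived libraries had most of theirs on 1. The Mmp14 share overlapped between the groups, at 11.3% and 5.94% against 8.37% and 8.68%. The 95% exact binomial interval of the Mmp9 share in Hes1-derived replicate 3 ran from 31.0% to 31.6%, and such intervals cover counting error only. Without Mmp13, the other 15 tested Mmp genes still had 7 lower in the Hes1-derived libraries, Mmp8 higher and a median of -1.02.

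Shares also differed among the inhibitors and the Adam genes. Timp2 held 83.2% and 83.1% of the Timp reads in the Hes1-derived and 70.7% and 69.4% in the Fgfr3-derived libraries, and Timp3 held 13.1% and 14.0% against 24.6% and 25.2%. Adam10 held 23.4% and 26.0% of the Adam reads against 17.6% and 19.0%, and Adam9 held 13.4% and 10.4% against 23.0% and 21.8%. Adam8 held 19.8% and 23.2% against 3.79% and 10.8%. Groups were separate for these shares of Timp2, Timp3, Adam10, Adam9 and Adam8, at the smallest exact permutation p that 2 against 2 libraries allow, 0.33. The Adam12 share of the Adam reads was also separate, with both Fgfr3-derived libraries above both Hes1-derived libraries. The shares of Adam17 and Adam15 overlapped. Adam17 held 16.2% and 17.0% of the Adam reads against 22.3% and 14.5%, and Adam15 held 11.5% and 10.3% against 9.51% and 15.3%.

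**Figure D4:**
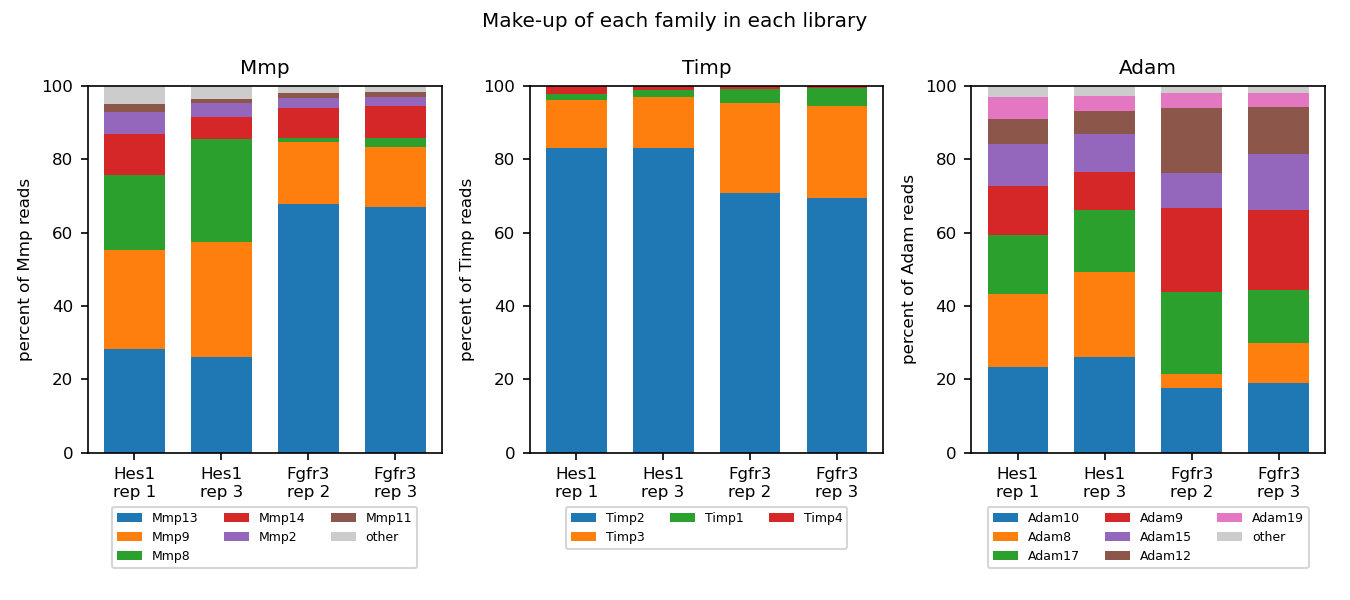
Percent of Mmp, Timp and Adam reads held by each gene (stacked bars) in each library. The Mmp13 segment takes 26.2% to 28.4% of the Hes1-derived and 66.9% to 67.9% of the Fgfr3-derived bars, and Timp2 stays the largest inhibitor in all 4 libraries.

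Levels of different genes were compared as RPKM, the reads scaled for exon length and library total. In the Hes1-derived libraries Mmp13, Mmp8 and Mmp9 led with means of 408, 398 and 328 RPKM. The range of Mmp8 (332 to 464 RPKM) overlapped both others, and with the length of the longest transcript in place of all exons Mmp9 (337 and 396 RPKM) overlapped Mmp13 (422 and 394 RPKM), so these 3 have no settled order. Timp2 (91.6 RPKM), Mmp2 (59.5 RPKM) and Mmp14 (57.7 RPKM) came next. Mmp14 depended on the length used, with 106 RPKM by its longest transcript, beside 96.2 for Timp2 and 65.2 for Mmp2. In the Fgfr3-derived libraries Mmp13 at 4511, Mmp9 at 845, Mmp14 at 256 and Timp2 at 178 RPKM had separate ranges and kept this order by the longest transcript, with Mmp14 then at 471 RPKM. Mmp2 (135 RPKM) and Mmp8 (125 RPKM) followed, and the range of Mmp8 (76.8 to 174 RPKM) overlapped those of Mmp2 and Timp2. Timp1 averaged 48.3 RPKM in the Fgfr3-derived libraries, where its range overlapped those of Mmp23 and Adam9, and 7.68 RPKM in the Hes1-derived libraries. At the other end, 16 of the 64 genes averaged under 1 CPM over the 4 libraries.

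How many members were called depended on what the libraries were scaled to. Scaling to the 16 CAR cell genes moved the median of all tested genes from -0.02 to 0.53, and scaling to eGFP reads moved it to 0.83. The median of the 54 members stayed below it, at -0.38 and -0.10. Under the CAR list 3 members were called lower in the Hes1-derived libraries (Mmp13, Mmp10 and Timp1) and 2 higher (Mmp8 and Mmp12). Under eGFP Mmp13 was lower at -2.63 (edgeR, adjusted p = 0.040) and Mmp8 higher at 2.52 (edgeR, adjusted p = 0.049). The 18 genes called lower kept a negative sign under both scalings, while the Adam median became 0.14 and 0.41. Per 1000 eGFP reads, Mmp13 had 169 and 328 reads in the Hes1-derived libraries and 1308 and 1776 in the Fgfr3-derived libraries. Mmp9 overlapped on this scale, at 160 and 392 against 323 and 442. Over all genes, the share of calls in the higher direction was 44.4% with TMM factors, 87.7% under the CAR list and 94.5% under eGFP.

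**Figure D5:**
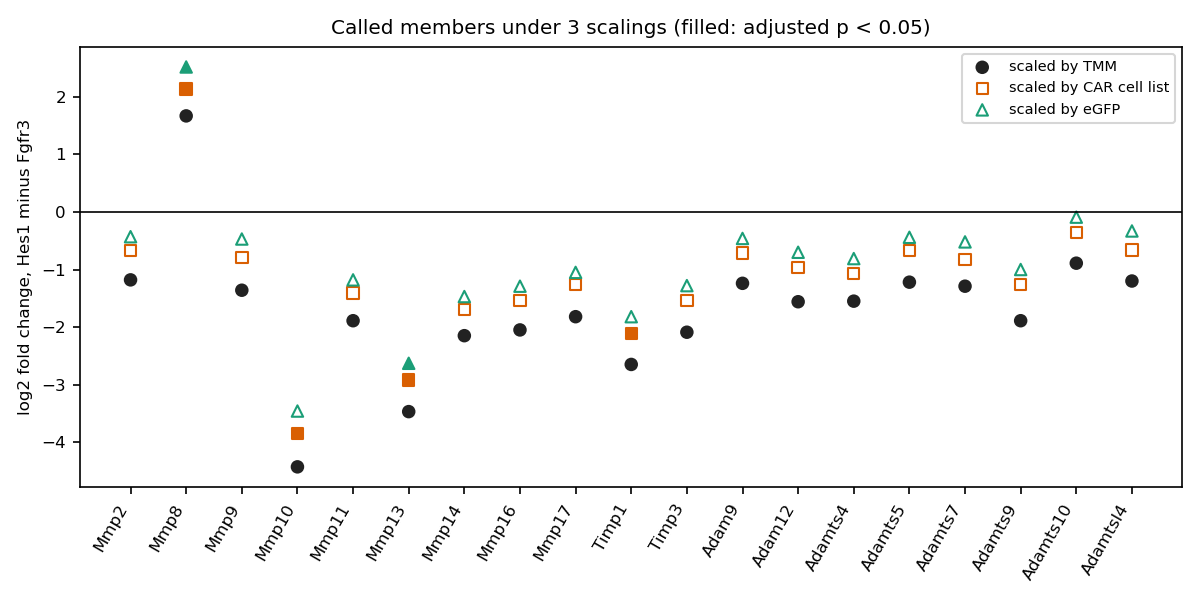
Log2 fold change (Hes1-derived minus Fgfr3-derived, y axis) of the 19 called genes under 3 scalings, filled where the adjusted p is under 0.05. Both other scalings move every gene up, Mmp13 and Mmp8 keep their calls under all 3, and the 18 lower genes stay below 0.

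The calls also depended on single libraries. Without Hes1-derived replicate 3, 6 members were lower (Mmp10, Mmp11, Mmp13, Mmp14, Timp1 and Timp3), and without Fgfr3-derived replicate 2, 8 were. Leaving out Hes1-derived replicate 1 or Fgfr3-derived replicate 3 left 15 and 16. Mmp11, Mmp13, Mmp14, Timp1 and Timp3 kept their call in each of these 4 fits, and 14 called members lost it in at least 1. In those fits a group stands on a single library, whose spread is taken to be like that of the other group.

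Genes that act with these enzymes also differed. Among regulators of activation and clearance, 6 of 14 tested were lower in the Hes1-derived libraries and 8 did not pass, with a median of -1.20. Of all tested genes, 6.56% were lower and 5.24% higher, and their median was -0.02. These values also stand beside the lists below, which were chosen with earlier results of these data known. A2m, the broad proteinase trap alpha-2-macroglobulin, had a log2 fold change of -3.35 ± 0.55 (edgeR, adjusted p = 0.0192). Plat, a plasminogen activator, had -2.37 ± 0.40, and Serpine2, an inhibitor of serine proteinases, had -1.87 ± 0.40 (edgeR, adjusted p = 0.0197 and 0.0297). Furin, which activates several of these precursors, and Reck, a membrane inhibitor of MMPs, were not called (edgeR, adjusted p = 0.0589 and 0.0845). Activators and inhibitors were thus both among the lower genes. Of 9 partners of the sheddases, Rhbdf1 (-1.32 ± 0.30), which carries ADAM17 to the surface, and Tspan17 (-1.14 ± 0.30) were lower, and Tspan33 (1.55 ± 0.34) was higher. The last 2 encode tetraspanins that partner ADAM10.

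Of 11 other matrix proteinases and their enhancers, Bmp1, Fap and Pcolce were lower in the Hes1-derived libraries and 8 did not pass, with a median of -1.12. Bmp1, the procollagen C-proteinase, stood at 278 and 199 CPM against 921 and 1019.8 CPM (-2.02 ± 0.27, edgeR, adjusted p = 0.0161). Pcolce, its enhancer, stood at 279 and 128 CPM against 533 and 703 CPM. Of 20 matrix substrates 8 were lower and 12 did not pass. The lower ones included Spp1, which encodes osteopontin (-3.72 ± 0.36), the fibrillin gene Fbn2 (-2.28 ± 0.33) and Vcan, which encodes versican (-1.51 ± 0.28). Of 16 shed substrates 5 were lower, among them Tnfsf11 (-1.77 ± 0.25), the osteoclast factor RANKL, Cdh2 (-1.75 ± 0.30), which encodes N-cadherin, and Hbegf (-1.80 ± 0.32).

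Of 22 transcriptional and hormonal regulators known for Mmp genes, edgeR called 8 lower in the Hes1-derived libraries, and 14 did not pass, with a median of -0.53. Runx2, the osteoblast factor with the RUNX motif searched above, stood at 50.5 and 44.4 CPM against 151 and 111 CPM (-1.46 ± 0.24, edgeR, adjusted p = 0.0189). Vdr, the vitamin D receptor, stood at 49.3 and 52.6 CPM against 191 and 218 CPM (-2.00 ± 0.20, edgeR, adjusted p = 0.0130). Sp7, or osterix, had -2.24 ± 0.24, Etv4 had -4.20 ± 0.63 and Fosl1, a subunit of AP-1, had -2.12 ± 0.44. Of the other AP-1 genes listed, Fosb was lower (-0.99 ± 0.20). Fos (-0.05), Fosl2 (-0.43), Jun (-0.69), Junb (-0.39) and Jund (-0.08) were not called. Fosl1 stood at 4.44 and 11.4 CPM against 35.2 and 34.0 CPM, and Fos at 2731 and 1618 CPM against 2635 and 1869 CPM. Some of the regulators, such as Runx2 and Sp7, are also osteoblast markers, so the 2 lists are not independent.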

How the data were processed

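Bulk RNA sequencing of 4 libraries was analysed. The submitters' processing notes name the aligner TopHat2 2.0.13 with Bowtie2 2.2.1, the counter HTSeq, DESeq2, Cufflinks, Cuffdiff and FastQC, and the build mm10. The annotation and strand setting are not given in the sources used here. Counts of Adam8, Adam15, Adam17, Adam19, Adamts4, Adamts7, Adamts9, Mmp11, Mmp12, Mmp19, Mmp24, Mmp28, Timp3 and Timp4 may thus have gained or lost reads through an overlapping gene on the opposite strand. Those of Adam1a may also have done so through overlapping genes on its own strand.

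The deposited counts are whole read numbers per gene symbol. The deposited signal values are those counts multiplied by 1 constant per library, and the deposited log2 values hold their regularized log2, per the file names. Counts were tested with edgeR 4.0.16 (R 4.3.3) by the quasi-likelihood F test with TMM factors, filterByExpr at a minimum count of 10, robust dispersions and Benjamini-Hochberg adjustment over 14330 genes at 0.05. Standard errors were taken as the size of the log2 fold change over the root of F. Totals were 22745128 and 23625327 reads for Hes1-derived replicates 1 and 3 and 26025607 and 26804832 for Fgfr3-derived replicates 2 and 3. CPM were scaled by TMM, and RPKM used GENCODE M21 exon lengths, which matched 64 of 64 genes.

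The members and lists were chosen with earlier results of these data known. The text names every called member, the 3 most abundant uncalled members of each subfamily, all Timp genes, up to 3 called genes per list and direction, and eGFP, Hes1 and Fgfr3. Other genes were chosen after their values were seen. Alternatives were 3 other factor methods, scaling to 16 CAR cell genes or to eGFP, DESeq2 1.42.0, limma-voom and limma-trend (limma 3.58.1) on the signal with a pseudocount of 1, other filters and thresholds, and leaving out each library. A planned search of protein motifs was not made.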

Additional observations from a re-analysis of the deposited data

How the results depend on the processing

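The number of called genes moved with the scaling, the test, the threshold and single libraries. Lower in the Hes1-derived libraries were 121 genes under the CAR list, 19 under eGFP, 1557 by DESeq2 and 1664 at an adjusted p under 0.10, and 181 to 998 with 1 library left out. Higher were 324 under eGFP, 1429 by DESeq2, 1411 at an adjusted p under 0.10, and 183 to 1225 with 1 library left out. Of the metalloproteinase and inhibitor genes, 3 were lower under the CAR list, 1 under eGFP and 6 to 16 with 1 library left out. Of the same genes, 2 were higher under the CAR list, 3 by DESeq2 (Adam8, Adam33 and Mmp8), 3 at an adjusted p under 0.10, and 0 to 3 with 1 library left out. In the 3 fits with 0 called higher, 2, 2 and 4 had an unadjusted p under 0.05. DESeq2 called 23 lower. The reversals were all in genes that were not called. Under the CAR list they were Mmp28 at 0.12, Mmp24 at 0.13, Adam17 at 0.14 and Adamtsl5 at 0.20. Under eGFP they were Mmp28 at 0.35, Mmp24 at 0.40, Adam17 at 0.41, Adamts14 at 0.28, Adamtsl3 at 0.22 and Adamtsl5 at 0.40. With 1 library left out, the values ran from -0.68 to 1.09 for Timp4, -0.31 to 3.57 for Mmp12, -0.89 to 0.12 for Mmp28, -0.89 to 0.19 for Adamts14 and -0.87 to 0.20 for Adamtsl5. The cause was not tested. Mmp13 kept its call under all 17 alternatives. The difference in share (Hes1-derived minus Fgfr3-derived, percentage points) ran from -41.2 to -38.9 for Mmp13, 18.6 to 26.3 for Mmp8, 12.4 to 13.7 for Timp2 and 10.8 to 17.8 for Adam8 with 1 library left out. No paired analysis was made because the labels name no pairs of libraries.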
